A study of Mus musculus with 46 samples.

Results

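The kinetochore and spindle checkpoint genes described here are 39 of the 20999 genes in the deposited count table of mouse microglia, the resident macrophages of the brain. The 39 were taken as a named list of gene symbols, not by their measured values, though earlier results of these data were known. All 39 passed the filter on low counts among the 12230 genes that were tested. By role the list holds 3 genes of centromeric histone and its loading, 12 of the inner kinetochore network, 10 of the NDC80, KNL1 and MIS12 complexes, 3 of the SKA complex, 2 of the outer corona, 7 of the spindle checkpoint and 2 shugoshins.

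A kinetochore is the protein assembly that forms on the centromere of each chromosome and captures spindle microtubules during mitosis. The histone variant CENP-A marks the centromere, an inner network of CENP proteins is built on it, and the NDC80 complex at the outer face binds the microtubule. Unattached kinetochores keep the spindle checkpoint active: the kinases TTK and BUB1 recruit BUB1B, BUB3, MAD1 and MAD2, which hold back CDC20, the activator of the anaphase-promoting complex. Microglia renew themselves by division, and divide most in the early postnatal brain and after experimental depletion.

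RNA was sequenced from 5 groups of sorted microglia from male C57BL/6 mice, with 2 libraries per group. The adult group came from untreated WT mice of 90 days and is labelled Ki67-negative, Ki67 being a protein of cycling cells. The other 4 groups came from Ki67-rfp reporter mice, either untreated at postnatal day 8 (PND8) or at 75 days, after a diet with PLX5622, an inhibitor of the CSF1 receptor that depletes microglia, from day 55 for 17 days and a recovery of 3 days (repopulation). Each of these was sorted into Ki67-positive and Ki67-negative cells. The reporter was therefore absent from the adult group and present in all the others. Promoter marks came from WT mice according to the labels: H3K27ac, an acetylation of histone H3 found at active regulatory DNA, in adult (60 and 65 days), PND8 Ki67-negative and Ki67-positive, repopulation Ki67-positive (90 days, diet from day 70) and cuprizone Ki67-negative and Ki67-positive microglia (90 days, demyelinating diet for 4 weeks), with 2 libraries each. The RNA polymerase II subunit Rpb2 was profiled in adult (2 libraries, 60 and 65 days, the second titled PND60) and PND8 Ki67-positive cells (1 library), H3K4me3, a mark of promoters, in adult cells of 75 days (2 libraries), and open chromatin by ATAC-seq in 1 library each of adult (80 days), PND8 Ki67-positive and repopulation Ki67-positive cells (75 days, diet from day 55, unlike the H3K27ac mice). The titles of the last 2 ATAC-seq libraries name the reporter although their genotype is given as WT. For ChIP-seq the Ki67 sorts rested on antibody staining of fixed cells and not on the reporter.

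The RNA libraries held 6865903 to 10287876 counts. Mki67, the gene of the sorting marker, gave 13.4 and 11 CPM (counts scaled to library size) in adult, 242 and 282 in PND8 Ki67-negative, 920 and 1107 in PND8 Ki67-positive, 336 and 463 in repopulation Ki67-negative and 930 and 1087 in repopulation Ki67-positive libraries. The Ki67-negative sorts thus carried far more Mki67 RNA than adult cells, and the command line at the top of the count table calls the sorts Ki67 low and Ki67 high where its column names say negative and positive. The 7 microglial markers summed to between 5280 and 6920 CPM in every library. In bulk samples, fewer cells that express a gene and less RNA per cell cannot be told apart.

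Promoter sequences are shown first, because the choice of the genes did not use the cell cycle motifs in them, which part of the genes hold. RefSeq (GRCm38.p6) held a promoter for 36 of the 39 genes, and in all 36 an entry began at the transcription start of the count table. The motifs searched were the cell cycle homology region (CHR), spelled TTTGAA or as the variant TTCGAA, the CCAAT box by those letters, and E2F sites. An E2F site was any one of TTCCCGC, then TTCGCGC, also TTGCCGC, and lastly TTGGCGC. All were searched on both strands. The stretches below are the 150 bases before the start, 5′ to 3′ on the strand of the gene, with every match in capitals; a CCAAT box on the opposite strand reads ATTGG, and a CHR there TTCAAA. These 8 checkpoint, corona and centromere genes are among the 12 that were higher in Ki67-positive cells at PND8 and in repopulation, and were chosen for having a match:
Cdc20 (chr4:118437344-118437493, minus strand): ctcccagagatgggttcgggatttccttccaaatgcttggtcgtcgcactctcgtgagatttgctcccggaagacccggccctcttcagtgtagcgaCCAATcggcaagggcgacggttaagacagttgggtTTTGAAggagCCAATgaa
Bub3 (chr7:131560220-131560369, plus strand): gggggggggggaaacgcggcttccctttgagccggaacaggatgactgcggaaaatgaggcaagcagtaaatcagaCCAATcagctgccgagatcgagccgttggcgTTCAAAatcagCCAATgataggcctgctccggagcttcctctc
Cenpa (chr5:30666736-30666885, plus strand): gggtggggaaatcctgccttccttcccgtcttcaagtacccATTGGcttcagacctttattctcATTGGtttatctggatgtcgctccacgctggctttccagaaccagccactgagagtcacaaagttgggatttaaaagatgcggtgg
Cenpf (chr1:189688087-189688236, minus strand): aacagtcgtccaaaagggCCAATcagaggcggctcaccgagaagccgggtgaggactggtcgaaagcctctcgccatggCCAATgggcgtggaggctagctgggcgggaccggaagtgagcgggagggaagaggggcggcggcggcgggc
Cenpe (chr3:135212413-135212562, plus strand): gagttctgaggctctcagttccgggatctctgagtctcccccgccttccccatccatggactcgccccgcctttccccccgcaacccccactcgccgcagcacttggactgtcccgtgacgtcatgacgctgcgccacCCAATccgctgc
Bub1 (chr2:127831860-127832009, minus strand): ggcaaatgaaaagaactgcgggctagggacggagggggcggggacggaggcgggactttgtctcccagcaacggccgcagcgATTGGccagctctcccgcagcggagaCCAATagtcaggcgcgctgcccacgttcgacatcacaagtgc
Bub1b (chr2:118598061-118598210, plus strand): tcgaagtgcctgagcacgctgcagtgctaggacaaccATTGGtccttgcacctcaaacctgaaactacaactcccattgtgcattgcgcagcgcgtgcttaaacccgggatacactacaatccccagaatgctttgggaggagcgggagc
Ttk (chr9:83834539-83834688, plus strand): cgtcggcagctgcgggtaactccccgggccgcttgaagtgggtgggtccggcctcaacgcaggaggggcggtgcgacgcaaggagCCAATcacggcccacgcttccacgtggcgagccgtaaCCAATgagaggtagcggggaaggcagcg

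Each of these stretches holds at least 1 CCAAT box, and those of Cdc20 and Bub3 hold a CHR beside it. Of all 12 such genes, 9 held a CCAAT box in these 150 bases, and Hjurp, Nuf2 and Sgo2a did not. Of the 8 genes with a promoter that were called in 1 setting, 2 held one, Cenpl and Spc25. Of the 16 genes with a promoter that were called in neither setting, 8 held one, among them Zwint and Mis12, and 8 did not. In each setting 10 of the 19 genes with a box in these bases were called higher, and 6 of the 17 without. A CCAAT box here therefore does not fully separate the called from the uncalled genes. The 4 stretches that follow were picked as examples: Nuf2 (called, no match), Zwint (not called, a match), and Ndc80 and Mad2l1 (not called, no match):
Nuf2 (chr1:169531465-169531614, minus strand): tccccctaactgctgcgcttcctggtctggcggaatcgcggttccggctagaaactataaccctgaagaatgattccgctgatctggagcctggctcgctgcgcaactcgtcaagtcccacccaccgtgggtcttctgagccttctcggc
Zwint (chr10:72654696-72654845, plus strand): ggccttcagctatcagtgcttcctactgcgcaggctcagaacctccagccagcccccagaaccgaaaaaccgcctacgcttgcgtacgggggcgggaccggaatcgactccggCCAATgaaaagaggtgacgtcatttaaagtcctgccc
Ndc80 (chr17:71526858-71527007, minus strand): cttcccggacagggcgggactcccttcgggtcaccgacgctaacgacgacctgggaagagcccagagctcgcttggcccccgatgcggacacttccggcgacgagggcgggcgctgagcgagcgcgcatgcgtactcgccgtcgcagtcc
Mad2l1 (chr6:66535071-66535220, plus strand): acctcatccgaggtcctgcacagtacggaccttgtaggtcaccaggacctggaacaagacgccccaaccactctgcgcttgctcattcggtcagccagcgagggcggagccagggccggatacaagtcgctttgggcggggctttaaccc

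Over the whole 300 bases (250 before to 50 after the start), 26 of 36 genes (72.2%) held a CCAAT box, against 37.4% of the 32851 mouse promoters in the table. A CHR stood in 19 of 36 (52.8%, against 19.2%), an E2F site in 7 of 36 (19.4%, against 9.57%), and CHR and CCAAT box together in 16 of 36 (44.4%, against 7.52%). Many CHR matches lay just after the start, as in Cenpf, Ttk, Bub1 and Cenpa, outside the printed bases. In the 150 bases before the start the counts were 19 of 36 for CCAAT (52.8%, against 24.5%), 7 for CHR (19.4%, against 9.7%), 3 for E2F sites (8.3%, against 5.47%) and 5 for CHR with CCAAT (13.9%, against 2.43%). Cenpm, an inner kinetochore gene, was the one gene of the 36 with all 3 motifs in those 150 bases, and in Ska2 an E2F match shares bases with a CCAAT box. A match is a run of letters and was not tested for binding.

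Against adult microglia most of the list was higher in every other group. With edgeR's quasi-likelihood test and Benjamini-Hochberg adjustment over all genes at 0.05, 38 of 39 were higher in PND8 Ki67-positive cells, where 25.1% of all tested genes were called higher and 49.5% in either direction. In PND8 Ki67-negative cells it was 37 of 39 (all genes 25.4%, and 46.8% in either direction), in repopulation Ki67-positive cells 36 (23.9%, and 44.9%), and in repopulation Ki67-negative cells 32 (21.5%, and 39.2%). In the last group 2 genes, Hjurp and Mis12, were lower (17.6%); neither adult library nor the first repopulation Ki67-negative library could be left out without the count of 2 falling to 0. The median log2 fold changes of the 39 were 4.21, 3.54, 4.10 and 2.95 in that order, while those of all genes lay near 0. For 33 of the 39, all 8 PND8 and repopulation libraries lay above both adult libraries, as they did for 19.3% of all genes. Called higher than adult in all 4 groups were 32 (all genes 11.4%). The 4 comparisons share the 2 adult libraries, so their values stand side by side and are not independent of each other. Each library's name in the command line at the top of the count table ends in a serial number, called the header code here, whose meaning is not given in the sources used here. The adult libraries share a header code that no other group has, and they lack the reporter, so that the code, the genotype and the adult group cannot be told apart.

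**Figure D1:**
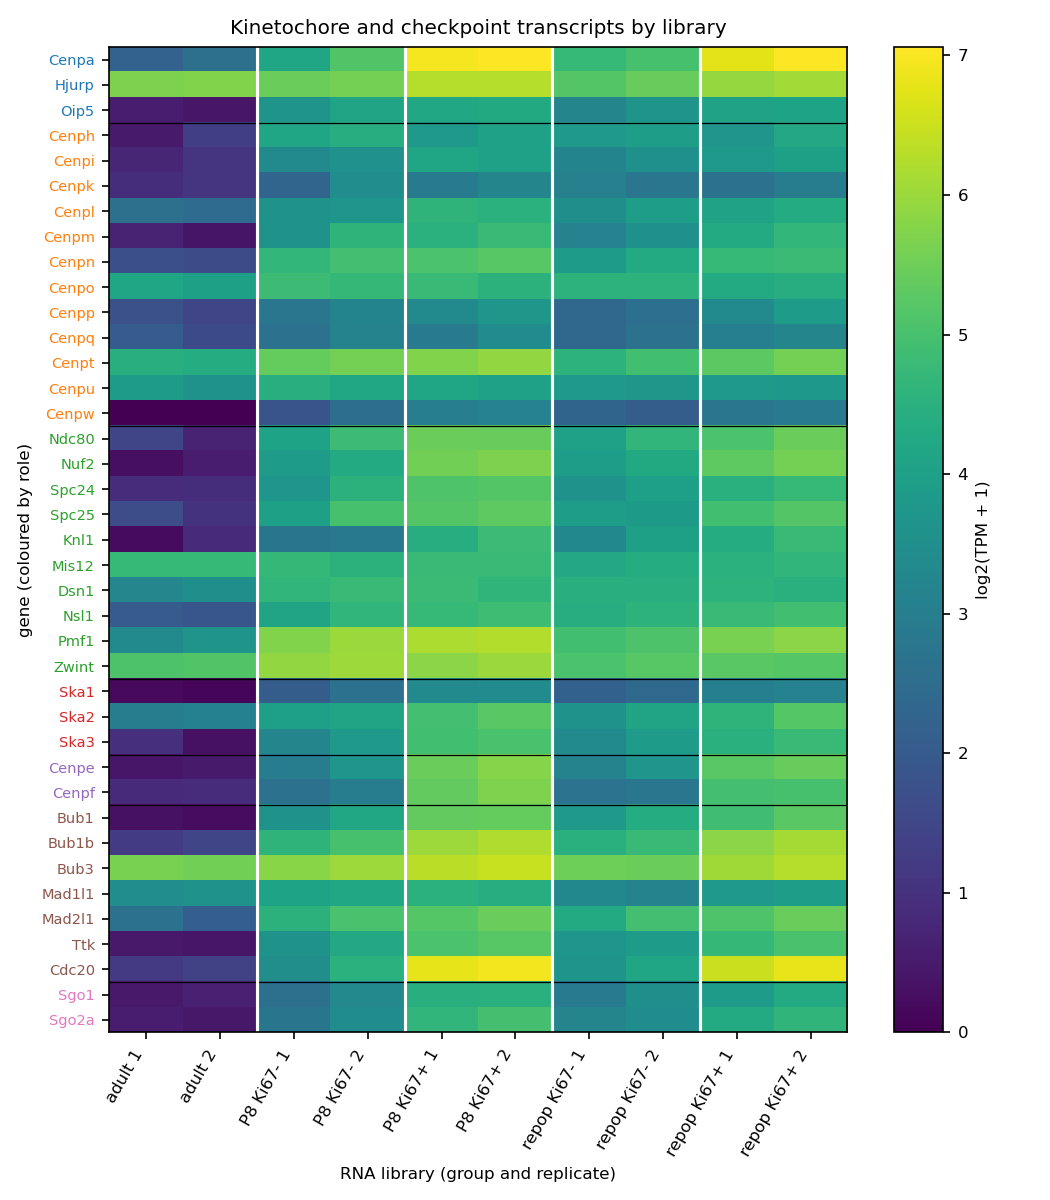
Heat map of log2(TPM + 1), from the authors' deposited TPM (transcript abundance scaled for length and depth), for the 39 genes (rows, ordered and coloured by role) in the 10 RNA libraries (columns). The 2 adult columns are dark for most rows, except for Hjurp, Bub3, Zwint, Mis12 and Cenpt, whose mean adult TPM lay between 20.2 and 50.8, and Cenpa and Cdc20 are brightest in the Ki67-positive columns.

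Per length, in the deposited TPM, the highest members in adult microglia were Hjurp (50.8 ± 0.953, SD, n = 2), Bub3 (47.9 ± 1.87), Zwint (33.8 ± 1.13), Mis12 (25.6 ± 0.232) and Cenpt (20.2 ± 0.655). The lowest were Nuf2 at 0.33 ± 0.165, Bub1 at 0.207 ± 0.0509, Ska1 at 0.103 ± 0.0453, and Cenpw, listed at 0 in both libraries. In PND8 Ki67-positive cells the order changed, with Cenpa (128 ± 5.92) and Cdc20 (117 ± 7.80) above Bub3 (83.5 ± 6.12), Hjurp (76.6 ± 0.472) and Pmf1 (73.5 ± 2.26). Hjurp shares its locus with Mroh2a, and since the counting's strand setting is not given in the sources used here, its adult level is uncertain. In all, 14 of the 39 overlap another RefSeq gene, and for 14 the TPM row names another transcript than the count row.

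Of the genes of the centromere and its loading machinery, Cenpa and Oip5 were low in adult cells and Hjurp was not. Cenpa, the centromeric histone, gave 3.59 and 5.25 CPM in adult, 17.2 and 34.5 in PND8 Ki67-negative, 125 and 135 in PND8 Ki67-positive, 26.2 and 34 in repopulation Ki67-negative and 114 and 142 in repopulation Ki67-positive libraries. Both Ki67-positive groups lay clear of every other library. The difference by Ki67 status was 2.31 ± 0.234 (log2 fold change ± SE, adjusted p = 6.6e-05) at PND8 and 2.10 ± 0.236 (adjusted p = 0.000223) in repopulation, with edgeR. Hjurp, the chaperone that deposits CENP-A, gave 280 and 289 CPM in adult, 249 and 265 in PND8 Ki67-negative, 431 and 430 in PND8 Ki67-positive, 203 and 249 in repopulation Ki67-negative and 350 and 396 in repopulation Ki67-positive libraries. It was higher with Ki67 by 0.74 at PND8 and 0.72 in repopulation, and in repopulation Ki67-negative cells its log2 fold change from adult was -0.33 (adjusted p = 0.019, edgeR), a call that was lost without either adult library. Oip5, part of the complex that licenses CENP-A loading, was at 0.367 to 0.463 CPM in adult and 8.74 to 19.3 elsewhere, a rise over adult in all 4 groups, and its Ki67 differences of 0.35 and 0.71 did not pass the threshold.

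**Figure D2:**
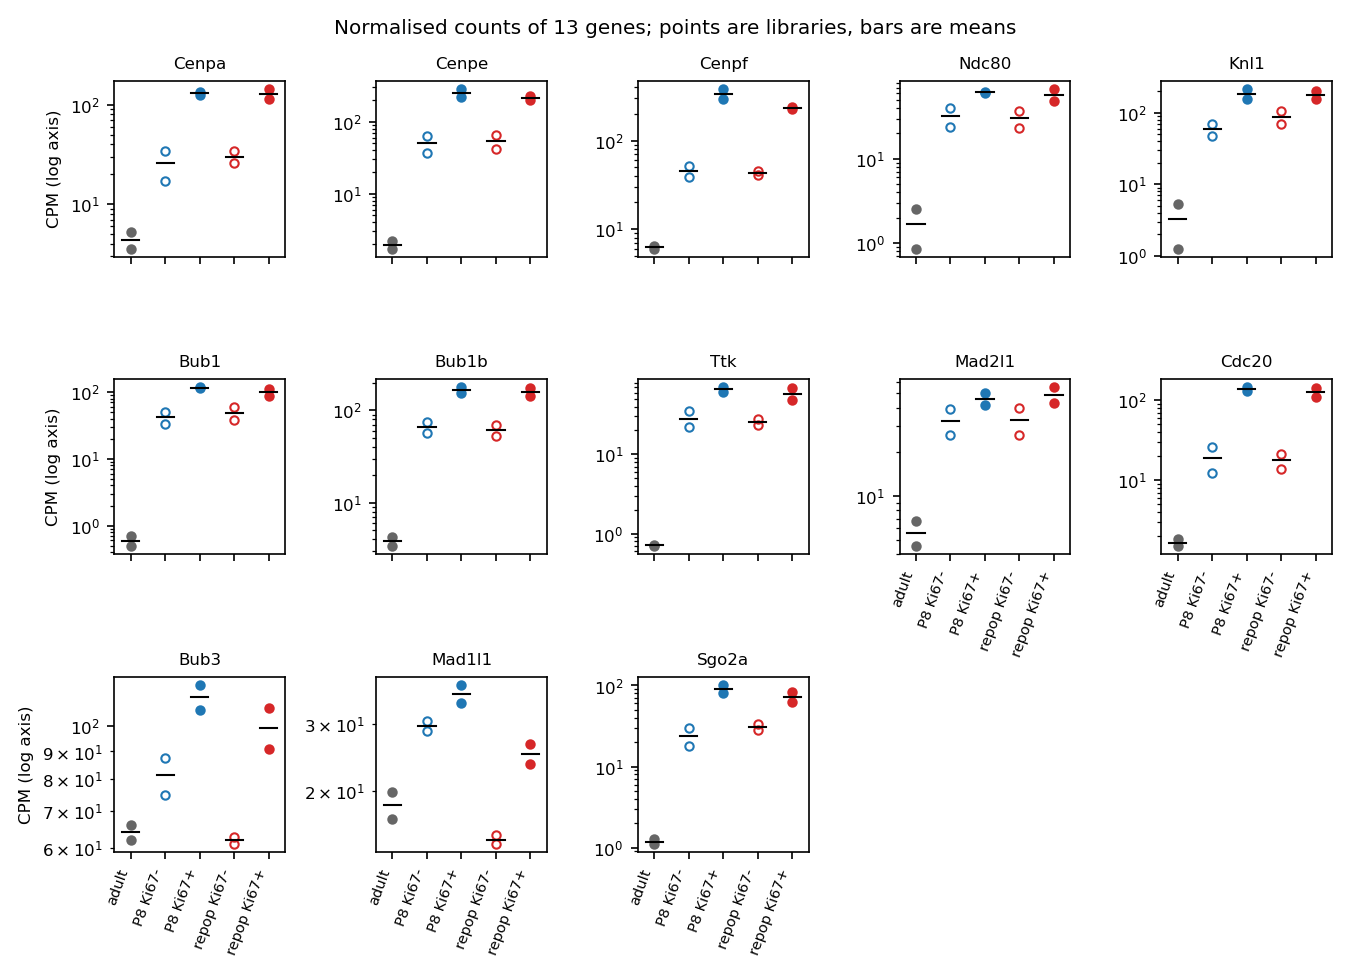
Normalised counts (CPM, log axis) of 13 kinetochore and checkpoint genes in each library; points are libraries, grey for adult, blue for PND8 and red for repopulation, open for Ki67-negative and filled for Ki67-positive, and bars are group means. Cenpa, Cenpe, Cenpf and Cdc20 show the widest step between open and filled points, and Bub3 and Mad1l1 the least distance between adult and the other groups.

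The corona genes Cenpf and Cenpe, with Cdc20 and Cenpa, showed the widest differences by Ki67 status in the list. Cenpf, a large coiled-coil protein of the outer kinetochore, gave 6.01 and 6.48 CPM in adult, 39.2 and 51.6 in PND8 Ki67-negative, 298 and 379 in PND8 Ki67-positive, 40.9 and 45.6 in repopulation Ki67-negative and 228 and 243 in repopulation Ki67-positive libraries. The groups did not overlap by Ki67 status, and the differences were 2.89 ± 0.139 at PND8 (adjusted p = 2.0e-07) and 2.45 ± 0.140 in repopulation (adjusted p = 1.9e-06, edgeR). Cenpe, the plus-end-directed kinesin of the kinetochore, gave 1.73 and 2.2 CPM in adult, 37 and 63 in PND8 Ki67-negative, 218 and 281 in PND8 Ki67-positive, 41.8 and 64.8 in repopulation Ki67-negative and 200 and 231 in repopulation Ki67-positive libraries. Here too the sorts did not overlap. Its log2 fold changes by Ki67 status were 2.30 and 2.03.

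Within the spindle checkpoint the genes split by how far they stood above adult cells. Cdc20, the target that the checkpoint inhibits, gave 1.5 and 1.83 CPM in adult, 12.4 and 26 in PND8 Ki67-negative, 131 and 145 in PND8 Ki67-positive, 13.9 and 21.6 in repopulation Ki67-negative and 109 and 141 in repopulation Ki67-positive libraries. Ki67-positive libraries were again clear of the rest, by 2.81 ± 0.253 at PND8 (adjusted p = 2.8e-05) and 2.83 ± 0.262 in repopulation (adjusted p = 6.6e-05, edgeR). Bub1, a checkpoint kinase, was at 0.694 and 0.489 CPM in adult, 33.4 and 50.4 in PND8 Ki67-negative, 116 and 118 in PND8 Ki67-positive, 38.2 and 60.6 in repopulation Ki67-negative and 86.6 and 113 in repopulation Ki67-positive libraries. For Bub1 the step from adult to the Ki67-negative cells (6.12 at PND8, 6.33 in repopulation) was larger than the step from Ki67-negative to Ki67-positive (1.47 and 1.03); the steps were not tested against each other. Bub1b, a pseudokinase of the inhibitory complex, gave 3.35 and 4.28 CPM in adult, 56.8 and 75.2 in PND8 Ki67-negative, 156 and 178 in PND8 Ki67-positive, 52.8 and 69.5 in repopulation Ki67-negative and 142 and 177 in repopulation Ki67-positive libraries. Its differences by Ki67 status were 1.33 and 1.39. Ttk, the kinase at the top of the pathway, gave 0.694 and 0.733 CPM in adult, 21.8 and 34.7 in PND8 Ki67-negative, 61.6 and 69.8 in PND8 Ki67-positive, 23.4 and 28.2 in repopulation Ki67-negative and 48.3 and 67.4 in repopulation Ki67-positive libraries. It differed by 1.20 and 1.17, and both genes passed the threshold in both settings without overlap of the sorts.

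The remaining checkpoint genes moved less. Bub3, which docks BUB1 and BUB1B at the kinetochore, stood at 66 and 62 CPM in adult, 75 and 87.7 in PND8 Ki67-negative, 107 and 119 in PND8 Ki67-positive, 60.9 and 62.9 in repopulation Ki67-negative and 91.1 and 108 in repopulation Ki67-positive libraries. It was higher with Ki67 by 0.48 (adjusted p = 0.0225) and 0.68 (adjusted p = 0.00485, edgeR), and in repopulation Ki67-negative cells its difference from adult was -0.05, below the threshold. Mad1l1, the anchor of MAD2 at unattached kinetochores, gave 16.9 and 19.9 CPM in adult, 28.8 and 30.6 in PND8 Ki67-negative, 38 and 34.1 in PND8 Ki67-positive, 15.3 and 14.5 in repopulation Ki67-negative and 23.5 and 26.6 in repopulation Ki67-positive libraries. The repopulation Ki67-negative pair was the lowest of the 10. Its Ki67 difference passed the threshold in repopulation (0.74, adjusted p = 0.0216) and not at PND8 (0.28, adjusted p = 0.313, edgeR). Mad2l1, which encodes MAD2, gave 6.71 and 4.52 CPM in adult, 26.1 and 39.1 in PND8 Ki67-negative, 41.4 and 50.7 in PND8 Ki67-positive, 26.2 and 39.5 in repopulation Ki67-negative and 43.1 and 55.1 in repopulation Ki67-positive libraries. It differed by Ki67 status by 0.49 and 0.59 with adjusted p-values of 0.249 and 0.223 (edgeR), although its Ki67-positive libraries lay above the Ki67-negative ones in both settings. It was higher than adult in all 4 groups, by 2.53 to 3.12.

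In the outer kinetochore, NDC80 complex members rose far above adult. Ndc80 gave 2.54 and 0.855 CPM in adult, 23.9 and 40.1 in PND8 Ki67-negative, 62.6 and 61.1 in PND8 Ki67-positive, 22.9 and 37.3 in repopulation Ki67-negative and 48.8 and 66.5 in repopulation Ki67-positive libraries. The groups did not overlap by Ki67 status, yet its differences of 0.94 (adjusted p = 0.0523) and 0.95 (adjusted p = 0.0876, edgeR) missed the threshold. Nuf2, its partner, was higher by 1.53 and 1.39, and both passed. Spc24 and Spc25, the other pair of the complex, passed in 1 setting each: Spc24 at PND8 (0.99; 0.92 in repopulation) and Spc25 in repopulation (1.26; 0.74 at PND8). Knl1, the scaffold that carries the checkpoint proteins, gave 1.27 and 5.25 CPM in adult, 46.7 and 70.7 in PND8 Ki67-negative, 154 and 212 in PND8 Ki67-positive, 69.9 and 107 in repopulation Ki67-negative and 158 and 201 in repopulation Ki67-positive libraries. Its difference was called at PND8 (1.63, adjusted p = 0.00236) and not in repopulation (1.03, adjusted p = 0.0577, edgeR).

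The MIS12 complex, which links the outer to the inner kinetochore, had 1 gene called with Ki67, Pmf1. Mis12 stood at 51 and 50.6 CPM in adult and between 37.3 and 53.2 elsewhere, with Ki67 differences of 0.16 and 0.28. It was the one gene of the 39 not higher than adult in PND8 Ki67-positive cells (0.06), and in repopulation Ki67-negative cells its log2 fold change from adult was -0.36 (adjusted p = 0.0263, edgeR). Dsn1 differed by -0.02 and 0.10, Nsl1 by 0.39 and 0.38, and none of these passed. Pmf1 passed in repopulation and not at PND8 (0.77, adjusted p = 0.0132; 0.34 at PND8, adjusted p = 0.191, edgeR). Zwint, a KNL1 partner, lay at 67.3 to 78.4 CPM in all 4 PND8 libraries and at 40.6 to 47.2 in all 4 repopulation libraries, beside 39.8 and 41.9 in adult, with Ki67 differences of -0.07 and 0.08. The PND8 libraries lay above all the others in either sort.

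The 3 SKA genes, whose complex helps the kinetochore track microtubule ends, differed by Ki67 status by 1.09 to 1.48 at PND8, where all 3 were called, and by 0.96 to 1.12 in repopulation, where Ska2 alone passed. Ska1 had 2 and 1 counts in adult, so its ratio to adult at PND8 in Ki67-positive cells, 92.7, carries a 95% counting interval of 31.4 to 452. The shugoshins, which protect centromeric cohesion, differed by 1.55 (Sgo1) and 1.91 (Sgo2a) at PND8 and by 1.00 and 1.22 in repopulation. Sgo1 missed the threshold in repopulation (adjusted p = 0.0644, edgeR). Sgo2a gave 1.27 and 1.1 CPM in adult, 17.9 and 29.5 in PND8 Ki67-negative, 80 and 101 in PND8 Ki67-positive, 28.5 and 33.5 in repopulation Ki67-negative and 62.2 and 82.5 in repopulation Ki67-positive libraries, with no overlap of the sorts. Sgo2a has a near copy, Sgo2b, and its counts are uncertain where reads match either gene.

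Of the 12 genes of the inner kinetochore network, 1 differed by Ki67 status in each setting. At PND8 only Cenpl was called (0.94, adjusted p = 0.0109), and in repopulation only Cenpt, which bridges to the NDC80 complex (0.73, adjusted p = 0.0279, edgeR). Cenph gave 14 and 16.6 CPM in PND8 Ki67-negative and 10.6 and 12.7 in PND8 Ki67-positive libraries, the Ki67-positive pair below the other, with a difference of -0.40 that did not pass. Cenpi, whose difference of 0.65 at PND8 (adjusted p = 0.0527, edgeR) and 0.60 in repopulation did not pass, was close to the threshold. Cenpo (-0.15 and -0.15), Cenpu (-0.27 and 0.05) and Cenpk (0.04 and -0.11) had differences near 0. Against adult, by contrast, all 12 were higher in both PND8 groups. Cenpw, a histone-fold protein of the network, had no counts in adult; against a floor of 3 counts per adult library its level was at least 20.7-fold higher in the Ki67-positive cells of PND8 and at least 18.3-fold higher in those of repopulation. Its fitted fold change depends on the prior count. With Cenpw at that bound the list's medians against adult became 4.21, 3.39, 4.10 and 2.95.

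**Figure D3:**
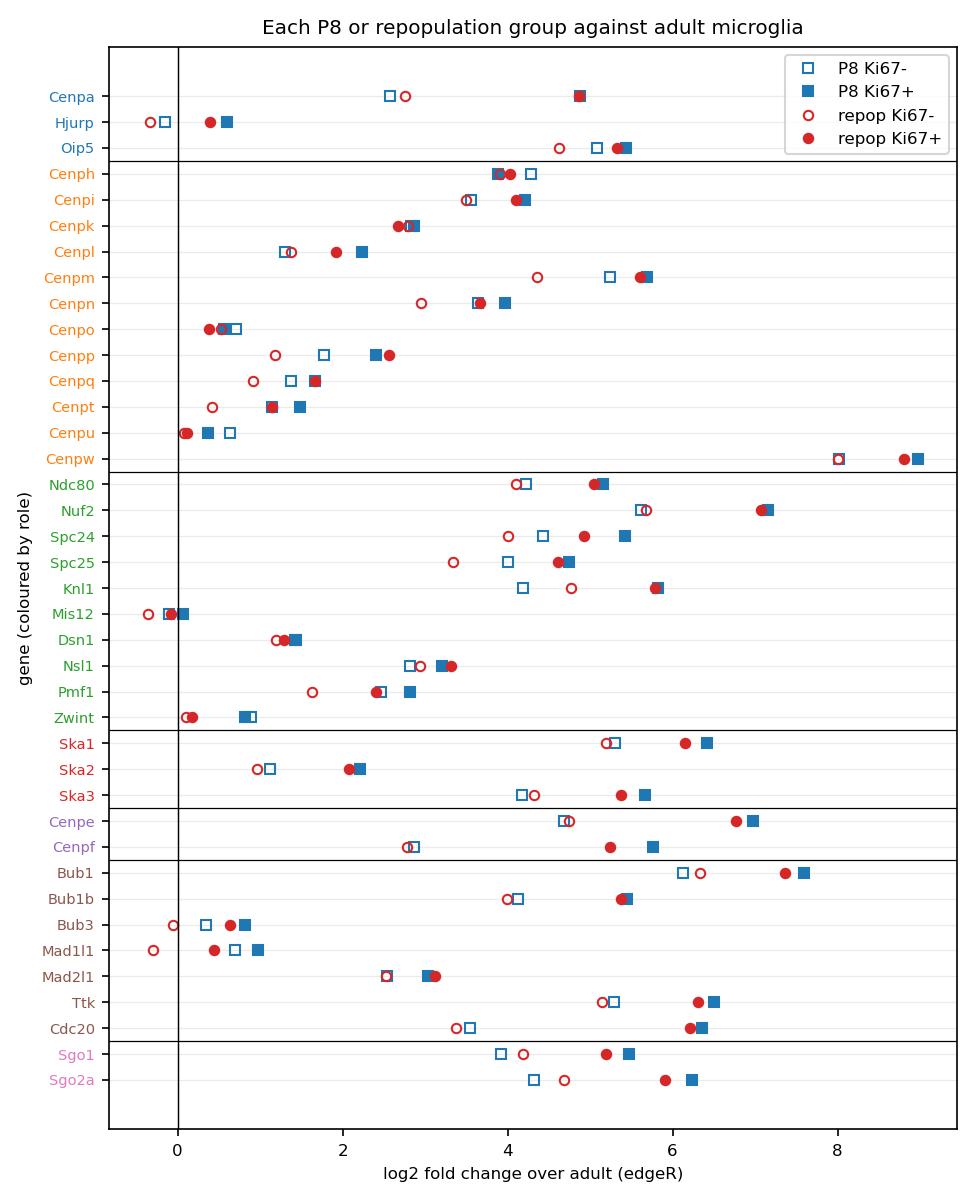
Log2 fold change over adult microglia (edgeR) for each of the 39 genes in the 4 other RNA groups: blue squares for PND8, red circles for repopulation, open for Ki67-negative and filled for Ki67-positive cells. The medians of the 39 are 4.21 and 3.54 at PND8 and 4.10 and 2.95 in repopulation (Ki67-positive, then Ki67-negative), Mis12 lies near 0, and the values of Cenpw rest on 0 adult counts.

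Over the whole list, Ki67-positive cells had 18 of 39 genes higher and 0 lower at PND8, where 2.75% of all tested genes were called higher, 3.15% lower and 5.9% in all. In repopulation 16 were higher and 0 lower, beside 1.87% higher, 0.867% lower and 2.74% in all. The list's median log2 difference at PND8 was 0.74 with all libraries and ranged from 0.58 to 1.07 without 1 of them. In repopulation it was 0.79 with all libraries, 0.98 without the second Ki67-negative library and 0.88 without the first Ki67-positive library. Without the first repopulation Ki67-negative library it was 0.66. Without the second repopulation Ki67-positive library it was 0.71. In both of the latter fits fewer genes were called than with all libraries, in the list and over all genes. The 7 genes that stayed called when each library in turn was left out were Cenpa, Hjurp, Nuf2, Cenpe, Cenpf, Bub1b and Cdc20. At PND8 the corresponding count was 13 of 18. At an unadjusted p below 0.05, in either direction, stood 26 of 39 genes at PND8 (2410 of all 12230) and 32 in repopulation (1927 of all). Both libraries of the Ki67-positive group lay above both Ki67-negative ones for 31 of 39 genes at PND8 (all genes 19.1%) and for 35 of 39 in repopulation (all genes 23.9%).

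The Ki67-positive and Ki67-negative libraries of the same replicate number share a header code. Within these pairs the list's median log2 difference came to 0.91 and 0.61 for the PND8 pairs and to 0.94 and 0.83 for the repopulation pairs, with 35, 33, 36 and 37 of 39 genes above 0. With the code as a term in the fit 24 genes were called higher at PND8 and 31 in repopulation, and over all 12230 genes the count higher went up too, from 336 to 780 and from 229 to 604. The second library was the higher one for 36 of 39 genes in PND8 Ki67-negative, 36 in repopulation Ki67-negative, 36 in repopulation Ki67-positive and 30 in PND8 Ki67-positive cells, and for 19 in adult.

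Higher with Ki67 at PND8 and in repopulation alike were 12 genes: Bub1, Bub1b, Bub3, Cdc20, Cenpa, Cenpe, Cenpf, Hjurp, Nuf2, Sgo2a, Ska2 and Ttk (all genes 1.56%). Lower in both settings was none (all genes 0.425%). Across the 39 genes the log2 fold changes of these comparisons, which share no library, had a Pearson r of 0.9 and a Spearman rho of 0.838; across all 12230 genes the values were 0.388 and 0.443. These are descriptions across genes, which are not independent replicates. The test of the difference between the settings (interaction of Ki67 status and setting) called 0 of 39 genes and 0% of all genes with edgeR. With DESeq2 it called 0 of the 39, and 1 gene higher and 2 lower over all genes. Over all genes edgeR called 12 higher and 16 lower with the header code as a term. With no filter on low counts it called 17 higher and 35 lower of 17073. At an unadjusted p below 0.05 the main edgeR fit had 3 members, Cenpf (-0.44), Sgo2a (-0.69) and Mad1l1 (0.47), and 613 genes in all. The genes called in 1 setting only (Cenpl, Spc24, Knl1, Ska1, Ska3 and Sgo1 at PND8; Cenpt, Spc25, Pmf1 and Mad1l1 in repopulation) are therefore not shown to differ between the settings.

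**Figure D4:**
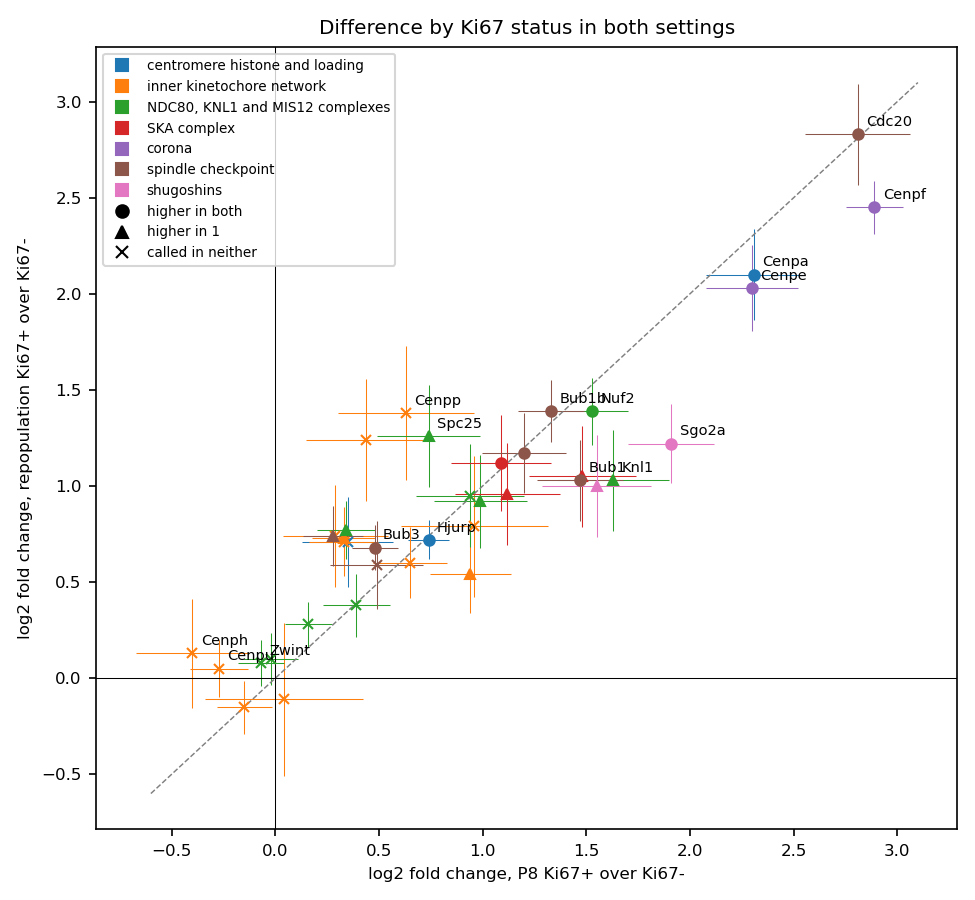
Log2 fold change of Ki67-positive over Ki67-negative cells at PND8 (x axis) and in repopulation (y axis) for the 39 genes, with standard errors, coloured by role; circles were called higher in both settings, triangles in 1 and crosses in neither, and the dashed line marks equal values. Cdc20, Cenpf, Cenpa and Cenpe lie above 2 on both axes, and Dsn1 and Zwint near the origin.

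The settings were also compared directly. In Ki67-positive cells 4 of 39 were lower in repopulation than at PND8 (all genes 14.2%): Zwint (-0.64), Mad1l1 (-0.53), Cenpf (-0.52) and Pmf1 (-0.42). In Ki67-negative cells 8 were lower (all genes 18.6%): Mad1l1 (-1.0), Cenpm (-0.88), Pmf1 (-0.84), Zwint (-0.79), Cenpt (-0.72), Cenpn (-0.69), Cenpu (-0.56) and Bub3 (-0.40), and 0 were higher in either sort (all genes 16.7% in Ki67-positive and 18% in Ki67-negative cells). The shares lower lie near their backgrounds. When each library was left out in turn, Zwint remained called in both sorts, and Pmf1 and Mad1l1 in Ki67-negative cells. The libraries that decided the others were each of the PND8 Ki67-positive libraries and the first repopulation Ki67-positive library, without any of which 2 genes were called in Ki67-positive cells, and in Ki67-negative cells the second PND8 library (5 genes) and the first repopulation library (3 genes). One header code holds the second PND8 and the first repopulation libraries. Within it all 39 genes were lower in repopulation in Ki67-positive cells (median -0.39) and all 39 in Ki67-negative cells (median -0.53). Each of these sets 1 library against 1, with no test. The share of all genes that were lower there was not computed, so these counts are not read as particular to the list. With the code as a term in the fit, 22 and 23 of the 39 were called lower, beside 2094 and 2745 of all 12230 genes (1738 and 2270 without it). That fit can set the settings against each other only within this code, since no other code holds both. Its calls thus rest on the same libraries as the counts above and are not a separate result. The nearness to the background does not hold in that fit, and no conclusion is drawn from it.

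Other genes of the pathway, from lists of related complexes, moved in part. Of 6 genes of the ROD-ZW10-Zwilch complex and dynein recruitment, 2 were higher with Ki67 at PND8 (Spdl1 by 1.22 and Nde1 by 1.14) and 1 in repopulation (Nde1 by 1.09). Of 22 genes of checkpoint silencing and the anaphase-promoting complex, 6 were higher and 1 lower at PND8, and 4 higher in repopulation, led by the ubiquitin-conjugating enzyme Ube2c (2.11 and 1.98). Of 13 cohesin genes, 1 was higher at PND8, the cohesin subunit Rad21 (0.78), and 2 in repopulation, Rad21 (0.79) and Smc1a (0.45). Among all tested genes 2.75% were called higher and 3.15% lower at PND8, and 1.87% higher in repopulation. The differences of the 22 genes at PND8 ran from -0.58 to 2.11. The medians of these 3 lists by Ki67 status lay between 0.07 and 0.37, beside 0.74 and 0.79 for the 39 genes.

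Markers of other cells were read in the same libraries. The 5 neural progenitor markers summed to 11.1 to 12.7 CPM in adult, 97.8 to 139 in PND8 Ki67-negative, 185 to 224 in PND8 Ki67-positive, 80.1 to 115 in repopulation Ki67-negative and 109 to 165 in repopulation Ki67-positive libraries, nearly all of it Nes, while Sox2 and Dcx stayed below 1 CPM in every library. The 4 border macrophage markers summed to 578 to 848 CPM at PND8, 60.4 to 72.6 in adult and 25.8 to 42.1 in repopulation. The 4 erythroid markers reached 15 to 51.2 at PND8 and at most 4.64 elsewhere, and the 5 monocyte or neutrophil markers 50.5 to 153 in adult and at most 9.26 elsewhere. The 4 endothelial markers were lower in Ki67-positive sorts (40 to 40.2 against 73.6 to 75.9 at PND8, 37 to 40.2 against 56.1 to 63.3 in repopulation). The 5 astrocyte markers, mostly Slc1a3, summed to 82.5 to 428 in PND8 Ki67-negative and 52.3 to 371 in PND8 Ki67-positive libraries. They were at 500 to 564 in repopulation Ki67-negative, 407 to 419 in repopulation Ki67-positive and 236 to 245 in adult libraries. Neuron markers stayed at or below 8.99, lymphocyte markers at or below 1.1, and oligodendrocyte markers between 49.1 and 89.2. The part of these in the results was not tested.

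At the promoters, H3K4me3 and accessible chromatin were found for the whole list in adult cells. A promoter peak was a peak of the authors' lists that overlapped the transcription start with 1 kb on each side. All 39 genes had an H3K4me3 peak in both adult libraries, against 59.1% of the 20999 genes, and all 39 had an ATAC-seq peak in adult (56.0%), in PND8 Ki67-positive (58.4%) and in repopulation Ki67-positive cells (60.8%). These include Cenpw, Bub1 and Nuf2, whose RNA was at or near 0 in adult. Within the ATAC-seq lists the median rank of these promoter peaks by the authors' normalized tag count was at percentile 90.7, 91.7 and 93.4, beside 84.3, 84.8 and 86.0 for the promoter peaks of all genes. Ranks are read within a list and not between lists. The shares of all genes, here and for the other marks below, include genes that failed the filter on low counts. All 39 genes passed that filter, and the shares over the 12230 tested genes were not computed. The promoter counts are therefore not read as particular to the list. For 12 of the 39, another gene starts within 1 kb, so that a peak there may belong to either.

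H3K27ac varied between groups. In adult microglia 23 of 39 genes had a promoter peak in both libraries (all genes 40.8%), 9 in 1 library and 7 in neither: Cenpf, Cenph, Cenpm, Cenpw, Spc25, Bub1 and Oip5. The adult libraries differed, with 23 genes in the first list of 19572 peaks and 32 in the second of 24903. At PND8 38 genes had a peak in both Ki67-negative libraries (all genes 48.1%), all but Cenpf, and all 39 in both Ki67-positive libraries (49.2%). In repopulation Ki67-positive cells 36 did (47.2%), all but Cenph, Cenpm and Ska1. Since the lists differ in length, from 19572 to 30539 peaks, a gene without a peak is one below the authors' calling threshold there and not one shown to lack the mark.

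Cuprizone, which damages myelin and is followed by microglial division, is covered by H3K27ac alone. In its Ki67-negative cells 25 of 39 genes had a promoter peak in both libraries (all genes 43.8%) and 6 in neither, Cenpf, Cenph, Cenpm, Cenpw, Spc24 and Spc25. In its Ki67-positive cells 35 did (45.8%), with Cenpf, Cenph, Cenpp and Oip5 in 1 library only. Cenpm, Cenpw, Spc24 and Spc25 had a peak in both Ki67-positive and neither Ki67-negative library, 4 of 39 where 0.414% of all genes did. The reverse held for 0 of 39 (0.081%). At PND8 no gene of the 39 had a peak in both Ki67-positive and neither Ki67-negative library (0.562%), since Cenpf had one in the second Ki67-negative list.

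Set against adult, the genes with a peak in both libraries of a group and in neither adult library were 7 of 39 in PND8 Ki67-positive (all genes 3.51%), 6 in PND8 Ki67-negative (2.67%), 5 in repopulation Ki67-positive (2.89%), 4 in cuprizone Ki67-positive (2.15%) and 0 in cuprizone Ki67-negative cells (1.06%). Cenpw, Spc25 and Bub1 were in each of the first 4 sets. No gene of the 39 had a peak in both adult libraries and neither of any of these groups. The comparisons share the adult lists. A peak in all 12 H3K27ac libraries was found for 21 of 39 (38.1%), among them Cenpa, Cenpe, Ndc80, Knl1, Ttk and Mad2l1. Cenpe and Ttk thus carried the mark in adult cells, where their RNA was at 1.73 to 2.2 and 0.694 to 0.733 CPM.

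**Figure D5:**
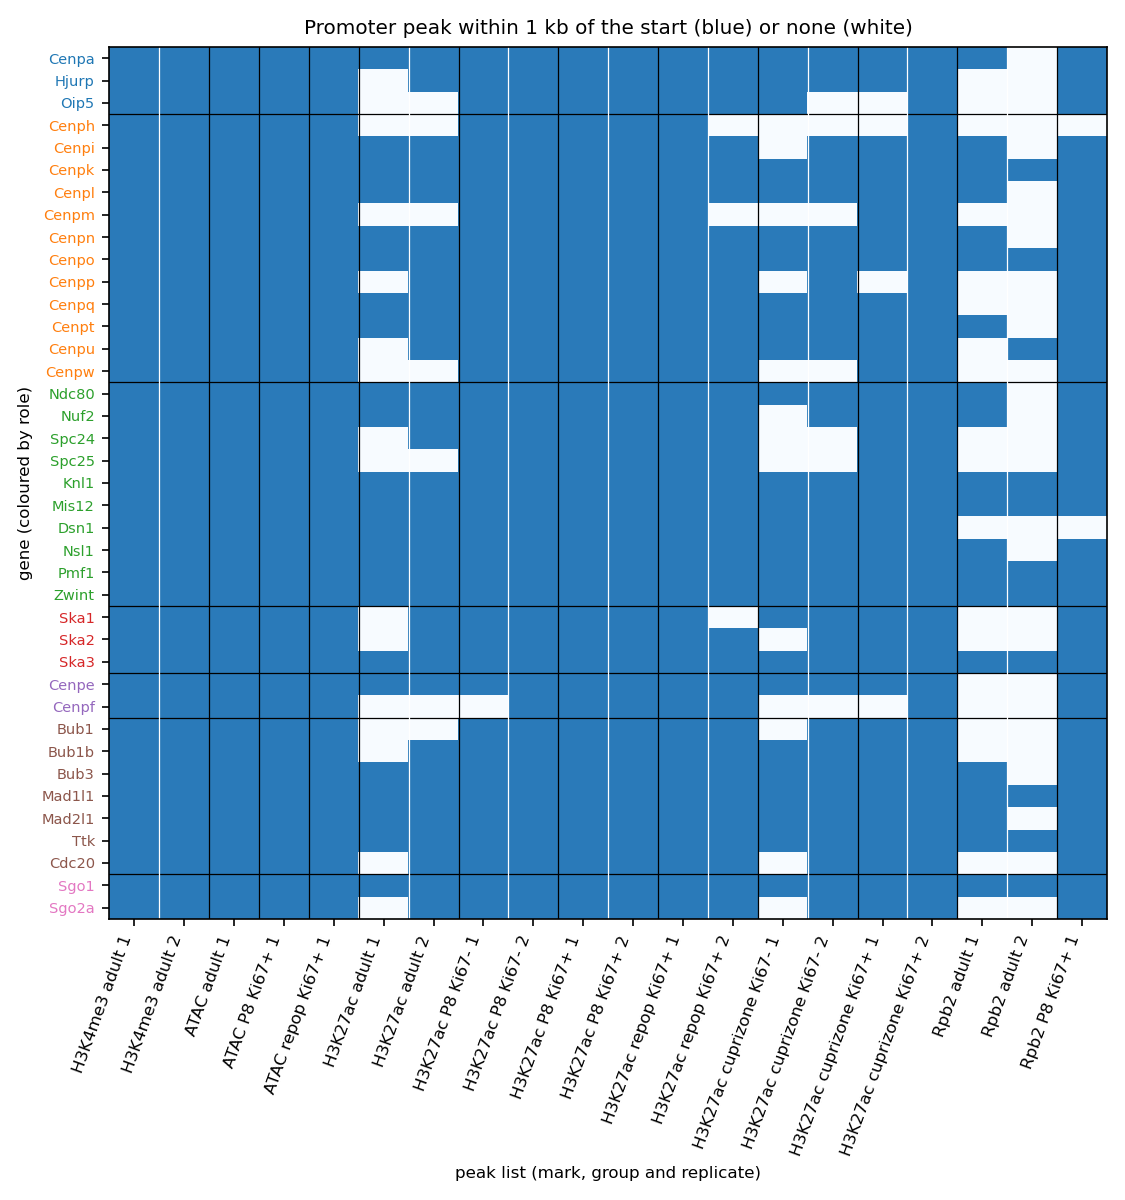
Presence (blue) or absence (white) of a promoter peak within 1 kb of the start for the 39 genes (rows) in the 20 peak lists (columns, by mark, group and replicate). The H3K4me3 and ATAC-seq columns are filled for all 39, white cells gather in the adult and cuprizone Ki67-negative H3K27ac columns, and the adult Rpb2 columns hold 20 and 11 filled cells.

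Within each list, the H3K27ac promoter peaks of these genes ranked low among all promoter peaks in adult cells, at median percentiles 43.0 and 36.7 beside 60.0 and 59.0 for all genes. In PND8 Ki67-positive cells they ranked level with them, at 67.9 and 69.9 beside 69.9 and 71.0, and likewise in repopulation Ki67-positive cells, at 65.8 and 65.4 beside 68.7 and 65.6. In PND8 Ki67-negative cells the values were 55.6 and 52.8 beside 69.6 and 68.9. In cuprizone they were 43.9 and 50.9 beside 58.7 and 67.1 in Ki67-negative and 51.0 and 59.3 beside 60.3 and 67.3 in Ki67-positive cells. These ranks use the authors' normalized tag count and carry no test.

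RNA polymerase II was called at fewer of these promoters in adult cells than H3K27ac or H3K4me3. Rpb2 peaks stood at the promoters of 10 of 39 genes in both adult libraries (all genes 28.1%), 11 in 1 and 18 in neither, with 20 genes in the first list and 11 in the second. In the PND8 Ki67-positive library 37 of 39 had one (48.4%), all but Cenph and Dsn1. A peak there and in neither adult library was found for 16 (10.8%): Cenpe, Cenpf, Cenpm, Cenpp, Cenpq, Cenpw, Spc24, Spc25, Bub1, Bub1b, Cdc20, Sgo2a, Ska1, Ska2, Hjurp and Oip5. The reverse held for 0 (0.238%). The PND8 list is a single library with 31602 peaks, beside 14550 and 10544 in adult. Its header names an H3K27ac input of the same group, although the labels also list an Rpb2 input for it. The part of the list lengths and of the input in the count was not tested.

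Sorted by Rpb2 in adult cells, the 10 genes with a peak in both libraries had a median adult TPM of 5.74 and the 18 with none 0.913. The median log2 fold change of PND8 Ki67-positive over adult was 2.84 for the first set, 3.21 for the 11 with a peak in 1 library and 5.44 for the 18. By H3K27ac, the 23 genes with a peak in both adult libraries rose by a median of 3.03, the 9 with 1 by 5.42 and the 7 with none by 5.69. The levels overlapped between the sets: Ttk and Sgo1 had Rpb2 peaks in both adult libraries at low RNA, and Hjurp, at 50.8 TPM, had none. Adult TPM ran from 0.363 to 33.8 in the first set and from 0 to 50.8 in the last. By CHR, the 19 genes with a match in the 300 bases had a median Ki67 difference of 0.96 at PND8 and 1.03 in repopulation, with 12 and 10 called, and the 17 without one 0.29 and 0.60, with 4 and 6 called. Over these 300 bases CHR with CCAAT box gave this order too (0.95 and 1.02, beside 0.41 and 0.74). The CCAAT box and the E2F site did not give it in both settings. Genes with a CCAAT box had medians of 0.74 (PND8) and 0.78 (repopulation), beside 0.56 and 0.84 for those without. Genes with an E2F site had 0.33 and 0.54, beside 0.74 and 0.95. In the 150 bases before the start these orders changed. The 7 genes with a CHR had 0.48 and 0.79, beside 0.74 and 0.74 for the 29 without, so the order failed at PND8. CHR with CCAAT box gave 0.48 and 0.79, beside 0.74 and 0.77. The 19 with a CCAAT box had 0.94 and 1.03, beside 0.63 and 0.74 for the 17 without. The 3 with an E2F site had 0.94 and 1.12, beside 0.65 and 0.77 for the other 33. These splits were not tested.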

How the data were processed

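Gene counts, TPM and HOMER peak lists were used as the authors deposited them. The submitters' processing notes name STAR 2.7.0f, Bowtie2 2.3.4.1, HOMER 4.11 and DESeq2; the build is mm10 per the file headers. The deposited counts are raw per gene, and the deposited TPM values are normalized for length and depth. Per the file headers, each peak carries a normalized tag count (a signal) and a findPeaks score; both are the authors' values.

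The libraries are stated by the labels to be 2 independent biological replicates per RNA condition. Counts were tested with edgeR 4.0.16 (R 4.3.3), TMM scaling, filterByExpr and 1 quasi-likelihood fit over all 5 groups, adjusted over 12230 genes; CPM are TMM-scaled. The test was checked on simulated data. Peaks were compared by overlap with the start and 1 kb each side, and promoter motifs were read from RefSeq. DESeq2 1.42.0 and limma 3.58.1 (on log2 TPM) served as alternatives. The members, the lists of other genes and markers, and the tests were chosen with earlier results of these data known. Named were all 39 genes by role, with values per library for 13 fixed genes and for Hjurp and Mki67; Hjurp was added after its values were seen. Input libraries were not analysed here, and 1 further list of related genes is not reported here.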

Additional observations from a re-analysis of the deposited data

How the results depend on the processing

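Of 340 counts of the listed genes under alternative settings, 300 stayed within 1.5 times the reported count, and of 3342 values of single genes 3114 kept their direction and their side of the threshold. The count higher with Ki67 in repopulation (16) became 28 with no filter on low counts, 27 with the replicate block, 31 with the header code as a term and 9 with limma on log2 TPM without a filter, and ranged from 7 to 19 without 1 replicate. The count lower in repopulation Ki67-negative than in adult cells (2) was 1 with DESeq2 and 0 to 2 without 1 replicate. The count lower in repopulation than PND8 Ki67-positive cells (4) was 7 with the replicate block, 22 with the header code and 2 to 3 without 1 replicate. In Ki67-negative cells the count lower (8) was 23 with the header code and 3 to 11 without 1 replicate, and the count higher (0) was 2 with the block, 1 with no filter, 1 with only the groups compared, 1 with limma on log2 TPM with a pseudocount of 1, and 0 to 3 without 1 replicate. With library sizes alone, the split over all genes in this comparison was 1829 higher and 3064 lower, beside 2203 and 2270, and the median of all genes was -0.13. Calls higher with Ki67 in repopulation moved over all genes too. They went from 229 of 12230 to 387 of 17073 with no filter on low counts. With limma on log2 TPM without a filter they were 121 of 17073. The header code could not be a term in comparisons with adult, which has a code of its own. Between repopulation and PND8, a fit with this term compares the settings only within the code that both share. Where 1 library of a group was left out, the other was assumed to vary like the remaining groups. The causes were not tested.

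The labels give replicate numbers without saying that they pair samples. Replicate differences correlated by 0.338 between the PND8 sorts and 0.263 between the repopulation sorts, with 2 pairs in each. Between all other groups they correlated by -0.008 to 0.097. Same-numbered sorts of a setting also share a header code. Whether these sorts are matched is not stated in the sources used here. The main tests treat all libraries as unpaired, and the replicate block is the alternative. With the replicate block 22 genes were called higher at PND8, beside 18, while calls over all genes went from 336 to 527 higher and from 385 to 701 lower; in repopulation, where 27 were called, they went from 229 to 383 and from 106 to 328. The calls against adult were 38, 37, 36 and 33 higher.

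Among the single-gene values followed, the signs that changed were all of values near 0 that passed no threshold. Genes not called in the direct comparisons of the settings were not followed, and signs changed there too. In repopulation against PND8 Ki67-positive cells, 4 of 39 genes lay above 0 with all libraries. Without the first repopulation Ki67-positive library 16 did. Without 1 replicate, Cenpk ranged from -0.44 to 0.91 at PND8 and -0.33 to 0.07 in repopulation, Zwint from -0.14 to 0.06 and -0.03 to 0.19, Dsn1 from -0.08 to 0.10 at PND8 (0.01 with only the groups compared), and Cenph from -0.21 to 0.40 in repopulation. Against adult, Cenpu ranged from -0.03 to 0.30 in repopulation Ki67-positive and -0.07 to 0.25 in Ki67-negative cells, and Zwint from -0.01 to 0.21 in the latter.

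With only the higher-scoring peaks of each list, split at the median score, H3K27ac promoter peaks in both libraries stood at 5 genes in adult, 13 in PND8 Ki67-negative, 22 in PND8 Ki67-positive, 11 in repopulation Ki67-positive, 8 in cuprizone Ki67-negative and 10 in cuprizone Ki67-positive cells, adult Rpb2 peaks at 5 and H3K4me3 peaks at 23. Adult Rpb2 peaks stood at 21 genes in at least 1 library, and at 11 to 20 without 1 replicate. Asking for at least 200 bp covered left 5 genes for Rpb2 at PND8, whose peaks are 190 bp long, and 12, 12 and 18 for ATAC-seq, whose peaks are 112 to 118 bp long, since 1 peak cannot cover that much. In the 150 bases before the start the motif counts were 7 for CHR, 3 for E2F sites and 5 for CHR with CCAAT. With 2 libraries per group, values of genes at a few adult counts are the least precise.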
